A study of Mus musculus with 18 samples.

Results

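The genes described here are the replication-dependent histone genes of the mouse, read in regulatory T cells (Treg). Members were chosen by a measured value, as the genes whose GENCODE M21 symbol starts with Hist1h, Hist2h, Hist3h or Hist4h and whose value was 1 or more in 3 or more of the 18 libraries. That rule gave 43 members among 67 identifiers with such a symbol, out of 35275 identifiers in the table and 12223 genes tested. The members are 5 H1, 12 H2A, 9 H2B, 7 H3 and 10 H4 genes. By cluster, 38 carry a Hist1 symbol (chromosome 13), 3 a Hist2 symbol (chromosome 3) and 2 a Hist3 symbol (chromosome 11), and Hist4h4 did not reach the minimum.

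Treg are the CD4+ T cells marked by the transcription factor Foxp3, and they hold immune responses in check. They were taken from male mice aged 6 to 8 weeks by CD4 column enrichment followed by sorting on YFP, which the Foxp3YFPcre allele makes in Foxp3-expressing cells. The 6 groups of 3 libraries are Dyrk1 (Dyrk1-fl/fl Foxp3YFPcre), HDAC1, HDAC2, Mef2c and Mef2d (each fl/fl with Foxp3cre), and wild type (Foxp3YFPcre alone). All of them thus carry the cre, which is made from the Foxp3 allele. Whether it acted only in cells that have expressed Foxp3 was not tested. The series text calls the 3 replicates of a group independent and biological, and the growth protocol speaks of a Rcor1 knockout, a gene that no group label carries. The series asks what each deletion does to the RNA of these cells.

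Cells that copy their DNA need new histones to wrap it. The core histones H2A, H2B, H3 and H4 form the nucleosome, and the linker histone H1 binds the DNA between nucleosomes. Most of these proteins come from clustered, mostly intronless genes that are transcribed in S phase. Their mRNAs end in a short conserved stem-loop, bound by the stem-loop binding protein Slbp, in place of a poly(A) tail. Transcripts that run past the stem-loop and carry a poly(A) tail are also known, above all in cells that have left the cycle. The series text speaks of mRNA sequencing and does not say how mRNA was selected.

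The stem-loop is the feature that sets these mRNAs apart, so it is shown for members that the results turn on. The pattern GG, 2 free letters, CTTTT, 1 free letter, AG, 2 free letters and CC was searched on the sense strand of the GENCODE M21 transcripts (GRCm38, the assembly also called mm10). It was found downstream of the stop codon in 27 of the 43 members, and anywhere in a transcript for 0.0849% of 55383 other genes. The transcript of 10 members is annotated to end within 1 base of the stop codon. A stem-loop of theirs would lie outside the annotation and was not searched. Other members without a match include Hist2h2be and Hist1h2bc, annotated for 2192 and 742 bases past the stop codon. Capitals mark the stem-loop.
Hist1h4c: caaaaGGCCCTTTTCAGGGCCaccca
Hist1h4i: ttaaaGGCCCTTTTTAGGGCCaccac
Hist1h3a: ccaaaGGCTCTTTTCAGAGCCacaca
Hist1h3c: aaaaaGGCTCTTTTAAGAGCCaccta
Hist1h1c: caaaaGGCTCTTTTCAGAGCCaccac
Hist1h2ae: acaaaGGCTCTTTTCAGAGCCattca
Hist3h2ba: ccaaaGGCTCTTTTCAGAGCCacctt
Hist2h4: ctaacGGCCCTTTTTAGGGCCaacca
All 8 H4 members with a match had a stem of the GGCCC and GGGCC form, and all matches in H1, H2A, H2B and H3 members had the GGCTC and GAGCC form. The loop letter that varies was C, A or T.

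RefSeq promoters (GRCm38.p6, 250 bases before to 50 after the annotated start) were matched for 37 members, and short motifs were searched on both strands. The octamer ATTTGCAT, the binding sequence of the factor Pou2f1 (Oct-1), stood in 5 of 11 H2A and 3 of 7 H2B promoters, in none of 5 H1, 5 H3 and 9 H4 promoters, and in 1.75% of all 27025 promoters. The H1 box AAACACA stood in 4 of 5 H1 promoters, in 1 H2A promoter and in 7.14% of all promoters. The letters CCAAT were in 5 of 5 H1, 11 of 11 H2A, 7 of 7 H2B, 5 of 5 H3 and 3 of 9 H4 promoters, against 37.9% of all. TATAAA was in 4 of 5, 7 of 11, 5 of 7, 2 of 5 and 7 of 9 promoters in the same order, against 14.2% of all. The windows below show the octamer, written as ATGCAAAT where it lies on the opposite strand, and the H1 box, in capitals.
Hist1h2ae: gaggttctATGCAAATaagggact
Hist1h2bg: agtcccttATTTGCATagaacctc
Hist1h2ac: gtgggattATGCAAATgaagtttc
Hist1h2ab: aggcctttATGCAAATgaggagct
Hist1h1c: agtgtaacAAACACAagttgggc
Hist1h1e: ggtgtaacAAACACAactccgca
The first pair are the same bases, chr13:23571333-23571356, read from either side, because Hist1h2ae (minus strand) and Hist1h2bg (plus strand) are transcribed away from each other with 175 bases between them. The Hist1h2ac window is at chr13:23684074-23684097 (minus strand) and that of Hist1h2ab at chr13:23750951-23750974 (plus strand). The H1 boxes of Hist1h1c, at chr13:23738687-23738709 on the plus strand, and of Hist1h1e, at chr13:23622659-23622681 on the minus strand, lie upstream of the start of both genes. A match is a description of the sequence and does not show that a factor binds.

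Values are FPKM, fragments scaled to the length of the gene and the size of the library, a level per length. The depth recovered from the values was 15.9 to 24.1 M reads per library. Levels of the members were low, and for 19 members whose whole reads could be recovered a library held 0 to 62 reads, with a median of 11. Foxp3 averaged 88.8 to 115 FPKM in the 5 floxed groups and 95.6 in wild type, and all 8 markers of the Treg list were measured. Of the targeted genes, Hdac1 was at 27.8, 36.5 and 31.6 FPKM in the libraries labelled HDAC1, against 117, 118 and 122 in wild type. Hdac2 was at 28.9, 27.7 and 27.1 FPKM in the libraries labelled HDAC2, against 28.7, 27.7 and 28.4 in wild type. The libraries labelled Dyrk1 had higher Dyrk1a and Dyrk1b (log2 0.25 and 0.68, limma adjusted p = 0.0352 and 0.000679), and those labelled Mef2d had higher Mef2d (0.35, adjusted p = 0.00718). Mef2c was at 1.95, 0.903 and 0.945 FPKM in libraries labelled Mef2c, against 0.302, 0.571 and 0.554 in wild type (0.59, adjusted p = 0.446). FPKM over a whole gene does not check the loss of single exons, so the groups below are those of the labels. The B cell list, a check on other cells in the sort, was high in Dyrk1 replicate 1 (summed 400.1 FPKM), Mef2d replicate 1 (183) and Mef2c replicate 1 (134), against 29.9 to 50.2 in wild type. All Mef2c libraries (65.1 to 134) and Mef2d libraries (52.1 to 183) lay above every wild-type library. HDAC1 libraries (47.2 to 91.1) and HDAC2 libraries (45.1 to 65.3) overlapped with wild type.

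Summed over the 43 members, histone RNA was lower in libraries labelled HDAC2, Mef2c and Mef2d than in any wild-type library. The sum was 58.3, 64.4 and 67.7 FPKM in HDAC2 libraries, 66.5, 55.4 and 58.9 FPKM in Mef2c libraries and 57.0, 73.1 and 63.9 FPKM in Mef2d libraries, against 147, 110 and 191 FPKM in wild-type libraries. These means were 42.5%, 40.4% and 43.3% of the wild-type mean, and the 9 libraries did not overlap with the 3 of wild type. HDAC1 libraries, at 95.1, 104 and 113 FPKM, overlapped with wild-type replicate 2. Dyrk1 libraries, at 152, 146 and 146 FPKM, lay within the wild-type range, and their mean was 99.1% of that of wild type. The sums include Hist1h2al, described further on, with a mean of 6.90 FPKM in Mef2d, 3.79 in Dyrk1 and 0 in wild-type libraries. It raises the Mef2d and Dyrk1 shares of wild type. The SD was 3.68 to 8.81 FPKM in the 5 floxed groups and 40.6 FPKM in wild type. Summing all 67 identifiers, with no minimum, gave 59.8 to 70.1 FPKM in HDAC2, 57.3 to 69.9 in Mef2c, 59.9 to 75.8 in Mef2d and 113 to 200.2 FPKM in wild-type libraries. In bulk RNA, fewer cells that express these genes and less of their RNA per cell cannot be told apart.

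**Figure D1:**
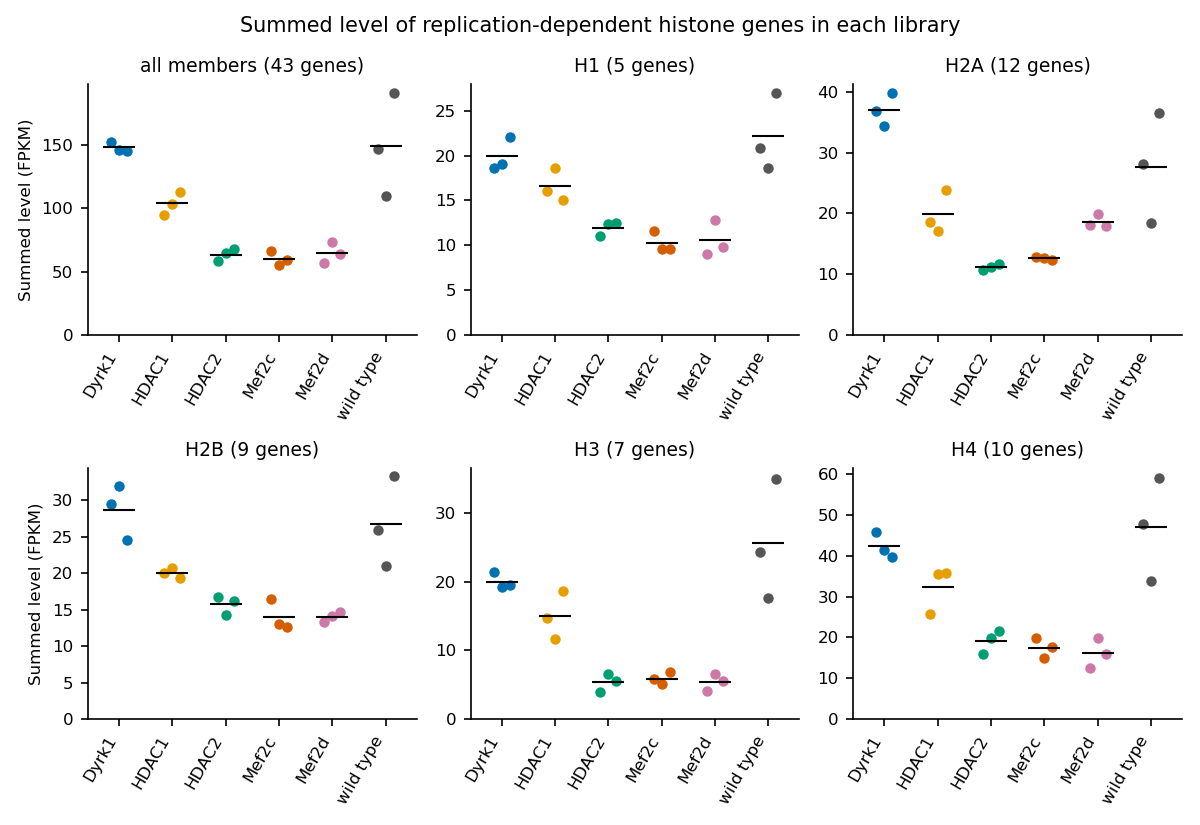
Summed level in FPKM (vertical axes, from 0) of all 43 members and of each histone type, by group. Each point is a library and each line a group mean (n = 3). In the panel of all members, HDAC2, Mef2c and Mef2d libraries lie between 55.4 and 73.1 FPKM and wild-type libraries between 110 and 191 FPKM, and in the H3 panel these 3 groups have means of 5.38 to 5.90 FPKM, against 25.6 FPKM in wild type.

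Relative to wild type, the sums in HDAC2, Mef2c and Mef2d libraries were lowest for H3. The summed level of the 7 H3 genes was 5.40 ± 1.33 FPKM in HDAC2, 5.90 ± 0.842 in Mef2c and 5.38 ± 1.18 in Mef2d libraries, against 25.6 ± 8.71 FPKM in wild type (SD, n = 3 each). That is 21.04%, 23.0% and 20.97% of the wild-type mean. The 10 H4 genes were at 40.7%, 37.1% and 34.2% of wild type in the same 3 groups. The 5 H1 genes were at 53.9%, 46.3% and 47.6%, and the 9 H2B genes at 58.7%, 52.5% and 52.4%. The 12 H2A genes were at 40.6% in HDAC2, 45.6% in Mef2c and 67.2% in Mef2d libraries, the last with Hist1h2al included, which is described on its own further on. The order of the types is a description, and differences between types were not tested.

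Each gene was tested with limma on log2(FPKM + 1), with p-values adjusted (Benjamini-Hochberg) over all 12223 genes and 0.05 as the threshold. All 5 comparisons with wild type share the same 3 wild-type libraries, so their calls are not independent. In HDAC2 libraries 29 of 43 members were lower and 0 higher, where 9.41% of all tested genes were lower and 16.1% higher. In Mef2c libraries 22 members were lower and 0 higher, where 6.06% of all genes were lower and 12.9% higher. In Mef2d libraries 27 were lower and 1 higher, where 7.95% were lower and 13.9% higher. In HDAC1 libraries 3 were lower and 0 higher, where 2.32% were lower and 10.2% higher. In Dyrk1 libraries 0 were lower and 1 higher, where 6.19% were lower and 11.1% higher. The median log2 difference of the members was -0.86 in HDAC2, -0.69 in Mef2c, -0.82 in Mef2d, -0.38 in HDAC1 and -0.07 in Dyrk1 libraries, while the median over all tested genes lay between 0.02 and 0.05. Over the 6 groups at once, an F test called 35 members, against 38.6% of all genes. The 1 higher member in Mef2d and in Dyrk1 libraries was Hist1h2al. Hist1h2bn is among the lower members in HDAC2, Mef2c, Mef2d and HDAC1 libraries, and both are among the 35. Each met the minimum only or mostly through groups where it is high, so their calls give no support here or in the counts below. Hist1h2ab, Hist1h3f, Hist1h4m and Hist1h1a met the minimum only through Dyrk1, HDAC1 and wild-type libraries. Their lower calls in HDAC2, Mef2c or Mef2d libraries therefore carry less weight.

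The counts moved with the wild-type libraries. Without wild-type replicate 3, the highest in summed histone level, 18 members were called in HDAC2, 15 in Mef2c and 17 in Mef2d libraries and 1 in HDAC1 libraries. Without wild-type replicate 2, the lowest, the counts were 31, 27 and 30, with 9 in HDAC1 and 3 in Dyrk1 libraries, of which 2 were lower. The HDAC1 count was also 1 on leaving out HDAC1 replicate 1 or 2, and the Dyrk1 count 3 without Dyrk1 replicate 3. Leaving out the 3 libraries with the most B cell RNA gave 30 calls in HDAC2, 17 in Mef2c and 18 in Mef2d libraries, with 1 in HDAC1 libraries. The Mef2c and Mef2d libraries kept in that fit still held more B cell RNA than any wild-type library. In every one of these fits the called members of the HDAC2 and Mef2c comparisons were lower.

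**Figure D2:**
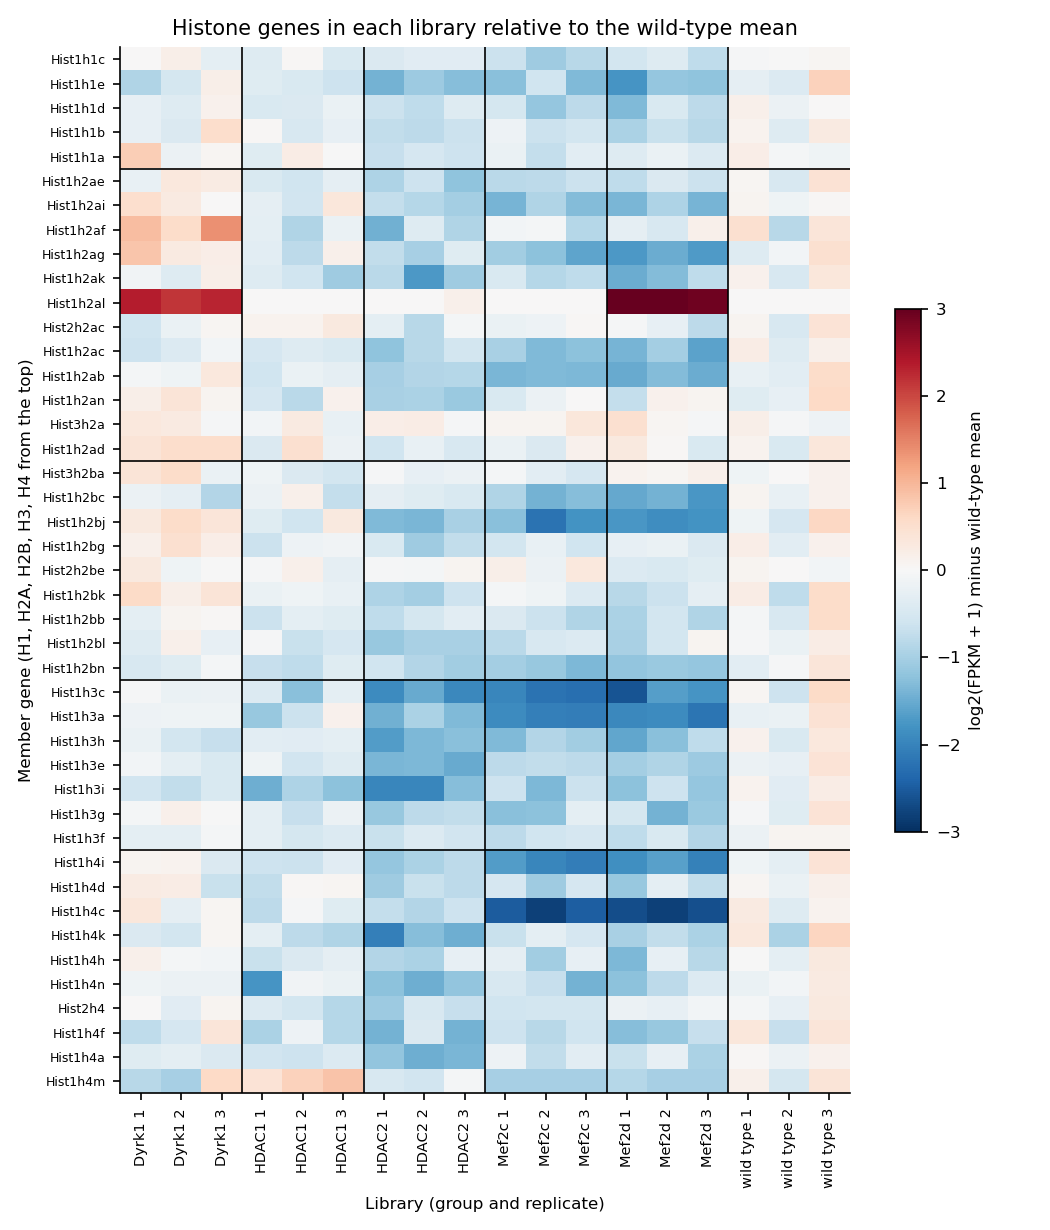
Heat map of log2(FPKM + 1) minus the wild-type mean (colour) for the 43 members (rows, by type and level) in the 18 libraries (columns, by group). Blue fills the HDAC2, Mef2c and Mef2d columns for most Hist1 genes, Hist1h4c is darkest in the 6 Mef2c and Mef2d libraries, and Hist1h2al is red in the Dyrk1 and Mef2d libraries.

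All 7 H3 members, which encode the core histone that carries many of the known regulatory marks on its tail, were lower in HDAC2, in Mef2c and in Mef2d libraries. Hist1h3c, the H3 gene with the highest mean level, was at 1.51, 2.27 and 1.44 FPKM in HDAC2, 1.39, 1.01 and 0.924 in Mef2c and 0.544, 1.93 and 1.73 in Mef2d libraries, against 8.63, 5.04 and 12.7 FPKM in wild type. No library of the 3 groups reached the lowest of wild type. Its log2 difference from wild type was -1.77 in HDAC2, -2.14 in Mef2c and -2.00 in Mef2d libraries (SE 0.30 each, limma adjusted p = 0.00275, 0.000231 and 0.000605). Hist1h3a was at 0.974, 1.82 and 1.17 FPKM in HDAC2, 0.454, 0.308 and 0.282 in Mef2c and 0.415, 0.471 and 0.186 in Mef2d libraries, against 3.63, 3.67 and 6.26 FPKM in wild type. All 6 Mef2c and Mef2d libraries lay below every HDAC2 library, although those differences did not pass (limma adjusted p = 0.0918 and 0.121).

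Hist1h3e stood the other way round. It was at 0.311, 0.332 and 0.199 FPKM in HDAC2, 0.985, 1.05 and 0.961 in Mef2c and 0.690, 0.827 and 0.594 in Mef2d libraries, against 2.03, 1.86 and 3.55 FPKM in wild type. Its lowest group was HDAC2, with a log2 difference of -1.41 from wild type (SE 0.16, limma adjusted p = 0.000323). Hist1h3i was listed at 0 in 2 HDAC2 libraries and at 0.606 FPKM in the third, against 3.19, 2.08 and 3.54 FPKM in wild type, and it was also lower in HDAC1 libraries, at 0.400, 1.03 and 0.644 FPKM (log2 difference -1.22, SE 0.24, limma adjusted p = 0.00809), a call lost with a pseudocount of 0.1. In Mef2c libraries its lower call was lost with a pseudocount of 0.1 and on leaving out Mef2c replicate 2 or wild-type replicate 1 or 3. In Mef2d libraries it was lost with that pseudocount and on leaving out Mef2d replicate 1 or wild-type replicate 3. Hist1h3g was at 0.203, 0.541 and 0.583 FPKM in HDAC2, 0.113, 0.128 and 1.18 in Mef2c and 0.831, 0 and 0.233 in Mef2d libraries, against 1.59, 1.06 and 2.53 FPKM in wild type. Each of its 3 calls was lost on leaving out wild-type replicate 3, those in HDAC2 and Mef2c libraries also without wild-type replicate 1 or without replicate 1 or 2 of their own group, and that in Mef2d libraries also without Mef2d replicate 2. Hist1h3h and Hist1h3f had log2 differences of -1.43 and -0.55 in HDAC2, -1.08 and -0.62 in Mef2c and -1.20 and -0.70 in Mef2d libraries. Hist1h3f met the minimum only through Dyrk1, HDAC1 and wild-type libraries, so its lower calls carry less weight.

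H4 genes encode the core histone that pairs with H3, and 8 of the 10 were lower in HDAC2, 4 in Mef2c and 5 in Mef2d libraries. Hist1h4c (chr13:23697635-23698454, minus strand, a single-exon gene) was at 0.245, 0 and 0.254 FPKM in Mef2c and 0.112, 0 and 0.126 FPKM in Mef2d libraries, against 7.49, 4.33 and 6.55 FPKM in wild type. HDAC2 libraries held it at 3.29, 2.81 and 3.57 FPKM, HDAC1 libraries at 3.05, 5.83 and 4.42 and Dyrk1 libraries at 7.80, 4.77 and 6.33 FPKM. The 6 Mef2c and Mef2d libraries were all under 0.3 FPKM and the other 12 all at 2.81 FPKM or more, with nothing between. The log2 difference from wild type was -2.59 in Mef2c and -2.70 in Mef2d libraries (SE 0.20 each, limma adjusted p = 6.15e-07 and 5.67e-07). It stayed past the threshold under all 13 alternatives in both groups, with adjusted p up to 0.000403 and 0.000893. In HDAC2 libraries it was -0.73 (limma adjusted p = 0.0177), a call that ended with a pseudocount of 0.1, without HDAC2 replicate 2 and without wild-type replicate 1 or 3 (adjusted p = 0.0611, 0.0754 and 0.0756 for the 3 libraries in that order).

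Hist1h4i, the H4 gene with the highest mean, was at 3.53, 2.71 and 2.42 FPKM in Mef2c and 2.99, 3.63 and 2.53 FPKM in Mef2d libraries, against 12.2, 10.8 and 18.1 FPKM in wild type. HDAC2 libraries lay between, at 5.42, 6.42 and 7.31 FPKM, without overlap on either side. The log2 differences were -1.90, -1.84 and -0.97 in Mef2c, Mef2d and HDAC2 libraries (SE 0.19 each, limma adjusted p = 8.31e-06, 1.66e-05 and 0.00363). Hist1h4a and Hist1h4k had the opposite order. Hist1h4a was at 0.322, 0.0858 and 0.154 FPKM in HDAC2 and 1.71, 0.812 and 1.40 FPKM in Mef2c libraries, against 2.07, 1.68 and 2.30 FPKM in wild type. It was lower in HDAC2 libraries (log2 -1.35, SE 0.17, limma adjusted p = 0.000839) and was not called in Mef2c libraries (-0.40, adjusted p = 0.111). In Mef2d libraries it passed with a smaller difference (-0.62, adjusted p = 0.0191), which was lost without Mef2d replicate 1 or 3 or wild-type replicate 1 or 3. Hist1h4k, with the log2 difference of -1.60 in HDAC2 libraries (SE 0.32, limma adjusted p = 0.00418), was not called in either Mef2 group. Hist1h4d, among the most abundant members, passed in HDAC2 libraries only (-0.85, limma adjusted p = 0.0371) and lost that call with the replicate number as a block (adjusted p = 0.0503), and also without any 1 HDAC2 library or without wild-type replicate 1 or 3.

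**Figure D3:**
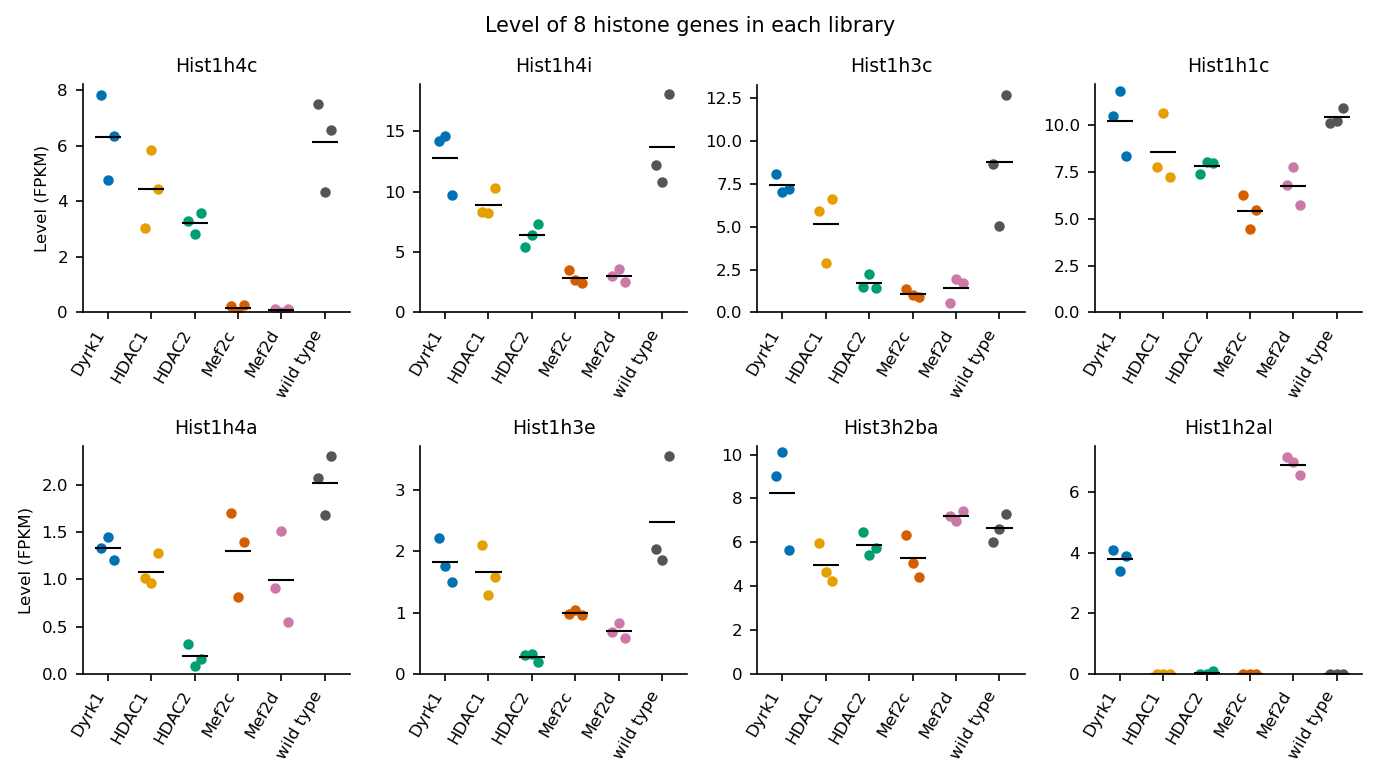
Level in FPKM (vertical axes, from 0) of 8 histone genes by group, with a point per library and a line at each group mean (n = 3). Hist1h4c is at 0.254 FPKM or less in all Mef2c and Mef2d libraries, Hist1h4a and Hist1h3e are lowest in HDAC2 libraries, Hist3h2ba lies between 4.23 and 10.1 FPKM in all libraries and Hist1h2al is seen in Dyrk1 and Mef2d libraries.

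H2A and H2B form dimers, and many of their genes lie head to head in pairs. In 6 such pairs of members, with 175 to 295 bases between the genes, all genes had a log2 difference below 0 in HDAC2 and Mef2d libraries, and all but Hist2h2be (0.10) in Mef2c libraries. Hist1h2ag and Hist1h2bj, with 269 bases between them, were both lower in the Mef2 groups. Hist1h2bj was at 0.942, 0 and 0.325 FPKM in Mef2c and 0.383, 0.271 and 0.322 FPKM in Mef2d libraries, against 3.25, 2.28 and 6.06 FPKM in wild type. The log2 differences of Hist1h2bj were -1.75 in Mef2c and -1.80 in Mef2d libraries (SE 0.28, limma adjusted p = 0.000687 and 0.000788), and those of Hist1h2ag were -1.28 and -1.64 (SE 0.27, limma adjusted p = 0.00442 and 0.00106). Hist1h2ac and Hist1h2bc, with 250 bases between them, were also both lower there. Hist1h2bc was at 2.24, 1.26 and 1.501 FPKM in Mef2c and 1.08, 1.28 and 0.810 FPKM in Mef2d libraries, against 5.47, 4.23 and 5.64 FPKM in wild type, while HDAC2 libraries held 4.06, 3.71 and 3.44 FPKM. The last of these did not pass against wild type (log2 -0.36, limma adjusted p = 0.229).

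Hist1h2ak and Hist1h2bn were both lower in HDAC2 and in Mef2d libraries. Hist1h2ae and Hist1h2bg, which share the octamer shown above, were both lower in HDAC2 libraries (log2 -0.91 and -0.76, limma adjusted p = 0.00675 and 0.00992), while Hist1h2ae alone passed in the Mef2 groups. The call of Hist1h2ae in Mef2d libraries (-0.62, limma adjusted p = 0.0426) was lost without any 1 Mef2d library and without wild-type replicate 1 or 3, and that in Mef2c libraries without Mef2c replicate 1 or 2 or wild-type replicate 1 or 3. The call of Hist1h2bg in HDAC2 libraries was lost without wild-type replicate 3. Hist1h2ai was lower in all 3 groups and its partner Hist1h2bl in HDAC2 libraries only. Hist1h2ab, outside these pairs, was at 0.205, 0.231 and 0.212 FPKM in Mef2c and 0.0938, 0.266 and 0.105 FPKM in Mef2d libraries, against 1.64, 1.49 and 3.54 FPKM in wild type. Its level in HDAC2 libraries was 0.550, 0.684 and 0.702 FPKM, above every Mef2c and Mef2d library and below every wild-type library. Hist1h2ab met the minimum only through Dyrk1, HDAC1 and wild-type libraries, so its lower calls carry less weight. Hist1h2bn was lower in HDAC2, Mef2c and Mef2d libraries and also in HDAC1 libraries (log2 -0.60, SE 0.18, limma adjusted p = 0.0416), a call that ended on leaving out HDAC1 replicate 1, HDAC1 replicate 2, wild-type replicate 2 or wild-type replicate 3 (-0.42 for the last). Hist1h2bn reached 1 FPKM in the 3 wild-type libraries and Dyrk1 replicate 3 only, so it met the minimum for membership mostly through the group where it is high, and its lower calls give no support. Hist1h2af, at 5.79, 4.26 and 8.31 FPKM in Dyrk1 and 4.01, 1.01 and 3.65 FPKM in wild-type libraries, passed in no comparison with wild type.

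Of the 5 linker histone genes, 3 were lower in HDAC2, 3 in Mef2c and 4 in Mef2d libraries. Hist1h1c, the most abundant member, was at 6.24, 4.46 and 5.44 FPKM in Mef2c and 6.77, 7.77 and 5.73 FPKM in Mef2d libraries, against 10.1, 10.2 and 10.9 FPKM in wild type. It fell by 0.85 on the log2 scale in Mef2c and by 0.56 in Mef2d libraries (SE 0.14 each, limma adjusted p = 0.00105 and 0.0138), and the second call was lost without Mef2d replicate 3 or wild-type replicate 3. In HDAC2 libraries, at 7.39, 8.03 and 7.98 FPKM, it was below all wild-type libraries and did not pass (log2 -0.37, limma adjusted p = 0.0675). Hist1h1e was lower in HDAC2, Mef2c and Mef2d libraries, with log2 differences of -1.26, -1.05 and -1.38 (SE 0.30 each). It overlaps Hist1h2be on the same strand, so that reads of these genes may not be told apart. Without wild-type replicate 3, which held 11.03 FPKM against 5.19 and 4.64 in the others, Hist1h1e passed in Mef2d libraries only (adjusted p = 0.0529 in HDAC2 and 0.136 in Mef2c libraries), and the Mef2c call was also lost without Mef2c replicate 1 or 3.

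Along chromosome 13 the lower members were spread over the whole Hist1 cluster. Leaving Hist1h2al aside, 15 members lie in its lower-numbered block and 22 in the block with the higher coordinates. In HDAC2 libraries 13 of 15 and 15 of 22 were lower, with median log2 differences of -1.01 and -0.86. In Mef2c libraries 8 of 15 and 13 of 22 were lower (medians -0.87 and -0.76), and in Mef2d libraries 9 of 15 and 17 of 22 (medians -1.01 and -0.83). All 37 of these genes had a log2 difference below 0 in each of the 3 groups. In the Mef2 groups Hist1h4i, Hist1h2ag and Hist1h2bj, which follow each other among the members, all fell. Hist1h4c lies between Hist1h2bc and Hist1h1c in that order, whose log2 differences in Mef2c libraries were -1.21 and -0.85.

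**Figure D4:**
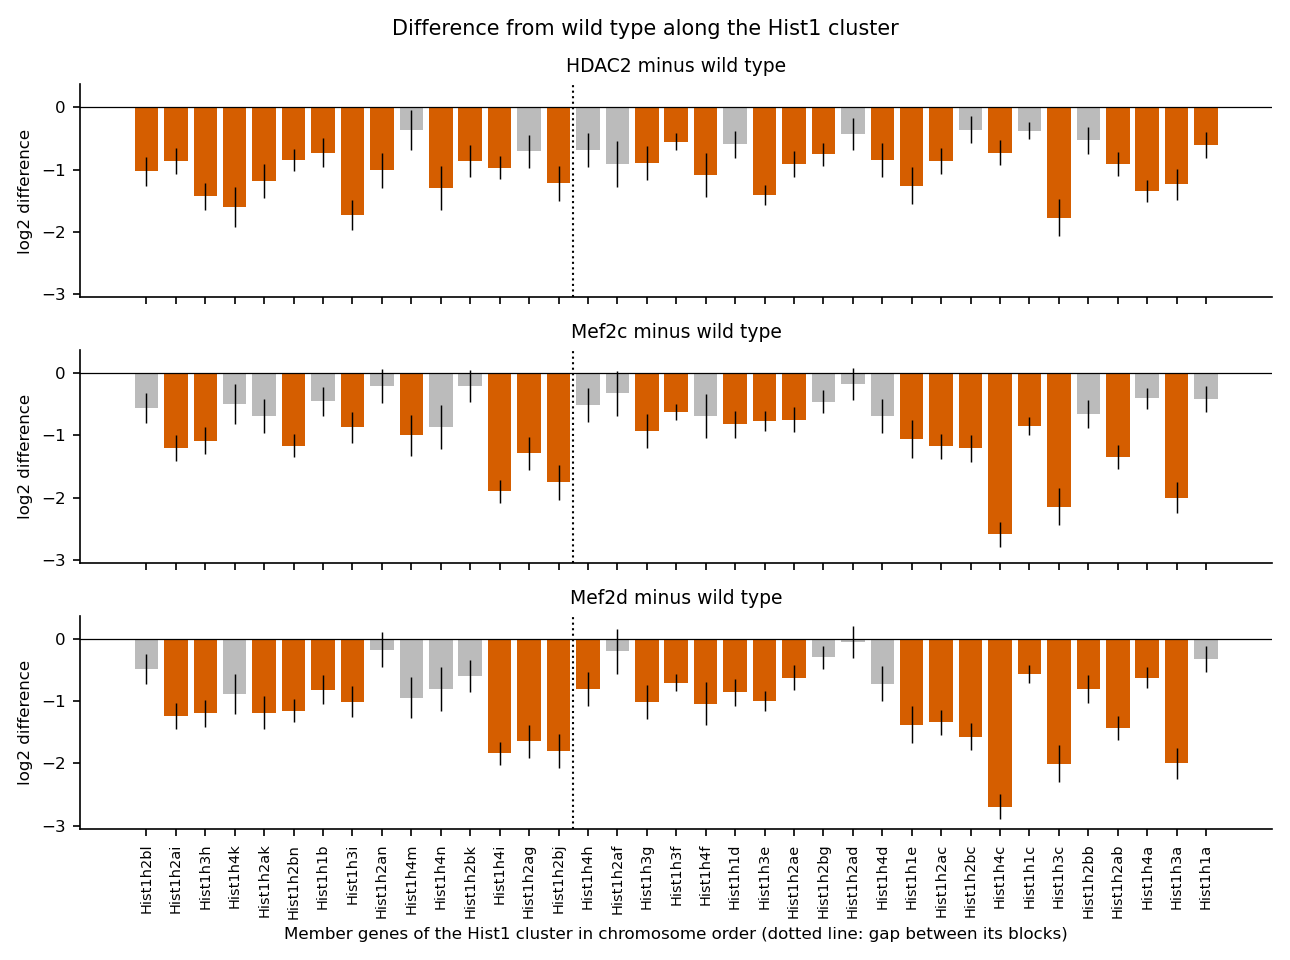
Log2 difference from wild type (vertical axes, bars with the SE of the fit) of the 37 Hist1 members in chromosome order, for HDAC2, Mef2c and Mef2d libraries. Orange bars passed an adjusted p of 0.05 and grey bars did not. All bars point down, and the bar of Hist1h4c reaches -2.59 and -2.70 in the Mef2c and Mef2d panels.

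Outside the Hist1 cluster 2 of 5 members passed in a comparison with wild type. Hist3h2ba, an H2B gene and the member with the third highest mean, was at 6.49, 5.42 and 5.75 FPKM in HDAC2, 6.31, 5.08 and 4.42 in Mef2c and 7.22, 6.96 and 7.45 in Mef2d libraries, against 6.00, 6.63 and 7.29 FPKM in wild type. Each of these 3 groups overlapped with wild type, and Hist3h2ba passed in no comparison with wild type. Hist3h2a, whose annotated span overlaps Trim17 on the same strand, ranged from 0.420 to 1.32 FPKM over all libraries and passed nowhere against wild type, nor did Hist2h2ac. Hist2h2be was at 1.42, 1.34 and 1.48 FPKM in Mef2d libraries, against 2.37, 2.21 and 2.02 FPKM in wild type (log2 -0.40, SE 0.14, limma adjusted p = 0.0463), and it lost that call under the replicate block (adjusted p = 0.0562) and without any 1 Mef2d or wild-type library. Hist2h4, an H4 gene, was lower in HDAC1 libraries (log2 -0.61, limma adjusted p = 0.0335), in HDAC2 libraries (-0.75, adjusted p = 0.0072) and in Mef2c libraries (-0.57, adjusted p = 0.0323), and not in Mef2d libraries (-0.17, adjusted p = 0.511). The calls of Hist2h4 in HDAC1 and Mef2c libraries were lost without any 1 library of the HDAC1 or Mef2c group and without wild-type replicate 1 or 3. Against the Hist1 sum at 38.7%, 36.1% and 38.4% of wild type in HDAC2, Mef2c and Mef2d libraries, the Hist2 sum was at 68.0%, 82.8% and 70.9% and the Hist3 sum at 91.8%, 84.1% and 111%. That difference between clusters was not tested, and the 5 members outside Hist1 are few. The Hist1 sum of Mef2d libraries also holds Hist1h2al.

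The labelled groups were also compared with each other. In Dyrk1 libraries 26 members were higher than in HDAC2 libraries and 0 lower, where 7.89% of all genes were higher and 9.47% lower. The median log2 difference of the members was 0.89. Hist1h2al and Hist1h2ad are among the 26. Hist1h2al reached 1 FPKM only in Dyrk1 and Mef2d libraries, and Hist1h2ad only in Dyrk1 replicates 2 and 3 and HDAC1 replicate 2. Their calls here give no support. Hist1h2ab and Hist1h1a, which reached 1 FPKM only in Dyrk1, HDAC1 and wild-type libraries, are also among the 26, and their calls carry less weight. In HDAC1 libraries Hist1h3e, Hist1h3h and Hist1h4a were higher than in HDAC2 libraries (log2 1.04, 1.12 and 0.81, limma adjusted p = 0.00254, 0.0200 and 0.0289), 3 members higher and 0 lower, where 1.06% of all genes were higher and 0.442% lower. The count was 1 without HDAC1 replicate 1 or 3 or HDAC2 replicate 1 or 2, and 5 without HDAC1 replicate 2. Between Mef2c and Mef2d libraries Hist1h2al alone was called, where 1.46% of all genes were lower and 1.6% higher in Mef2c libraries, and the median over the members was 0.05. Hist2h2be came nearest of the others, higher in Mef2c libraries by 0.51 on the log2 scale (limma adjusted p = 0.0641).

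The Mef2 groups and HDAC2 were set against each other after the values of Hist1h4c had been seen. The outcome for Hist1h4c was thus known beforehand, and its p-values and calls in these comparisons give no support. Hist1h4c was lower in Mef2c than in HDAC2 libraries (log2 -1.86, SE 0.20, limma adjusted p = 2.24e-05) and in Mef2d than in HDAC2 libraries (-1.97, SE 0.20, adjusted p = 1.86e-05). Hist1h4i and Hist1h2bc were lower in both Mef2 groups too, with log2 differences of -0.93 and -0.84 in Mef2c and -0.87 and -1.21 in Mef2d libraries relative to HDAC2 libraries. Hist1h4a was higher in both (0.94 and 0.72, limma adjusted p = 0.00268 and 0.0223), and Hist1h3e was higher in Mef2c libraries (0.64, adjusted p = 0.0209), a call lost on leaving out any 1 of the 6 libraries. The Mef2c calls are 3 lower and 2 higher, where 3.71% of all genes were lower and 2.74% higher. Those of Mef2d are 3 lower and 2 higher, where 2.78% were lower and 1.52% higher, and Hist1h2al is among the higher ones. Hist1h4c is among the lower calls of both Mef2 groups. Of the 5 Mef2c calls, 3 were left on leaving out any 1 HDAC2 library or Mef2c replicate 2 or 3, and 4 without Mef2c replicate 1. The Hist1h2bc call was lost in all of these but the last. Of the 5 Mef2d calls, 3 were left without HDAC2 replicate 2 or 3 and 4 without any 1 Mef2d library, where Hist1h4a was lost without Mef2d replicate 1 or 2 and Hist1h4i without Mef2d replicate 3. Hist1h4c passed under all 13 alternatives in both, which gives no support for the reason stated above. By their calls against wild type, 16 members were lower in all of HDAC2, Mef2c and Mef2d libraries, 8 in HDAC2 libraries and neither Mef2 group, and 4 in both Mef2 groups and not in HDAC2 libraries. The last 4 are Hist1h1c, Hist1h1d, Hist1h2ag and Hist1h2bc. Hist1h2bn is among the 16, and its lower calls give no support. Hist1h2ab and Hist1h3f are also among the 16 and Hist1h1a among the 8, and their lower calls carry less weight.

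Hist1h2al does not behave like the other members and is not a usual member of the cluster. It is annotated as a processed pseudogene at chr13:51202727-51203065 (minus strand), away from the Hist1 genes. It was at 4.08, 3.40 and 3.88 FPKM in Dyrk1 and 7.16, 6.98 and 6.57 FPKM in Mef2d libraries. HDAC2 libraries held 0, 0 and 0.110 FPKM, and in HDAC1, Mef2c and wild-type libraries it was listed at 0 throughout. It met the minimum for membership through those 2 groups alone, so a difference was bound to be found and no fold is given. Of its 50-base words 32.4% occur in no other GENCODE gene, so part of its reads could be shared with other histone genes. Within 1 Mb of it 6 other genes were tested, of which 1 was called in each of Dyrk1, HDAC2, Mef2c and Mef2d libraries. The Dyrk1 call was Gadd45g, higher (log2 1.02), and the Mef2c and Mef2d calls were Cks2, lower (-0.77 and -0.60). Over all tested genes 11.1% were higher in Dyrk1 libraries, and 6.06% and 7.95% were lower in Mef2c and Mef2d libraries. Hist1h4m was listed at 0 in all 3 Mef2c libraries and at 0.110, 0 and 0 FPKM in Mef2d, 0.128, 0 and 2.03 in Dyrk1, 0.431, 0.345 and 0.929 in HDAC2 and 1.64, 2.22 and 2.63 FPKM in HDAC1 libraries, against 1.21, 0.375 and 1.61 FPKM in wild type. Of its 50-base words 10.2% are unique, and its lower call in Mef2c libraries was lost on leaving out any 1 Mef2c library.

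Genes related to histone supply were read beside the members. Replication-independent and variant histone genes are, as a class, mostly not tied to S phase. Whether single ones, such as H2afz and H2afx, follow the cell cycle in these libraries was not tested. Of 11 genes of this class, 9 were tested against wild type. In HDAC2 libraries 5 were lower, in Mef2c and Mef2d libraries 4 each and in HDAC1 libraries 1, with 0 higher. In Dyrk1 libraries 1 was lower and 2 higher. Over all tested genes 9.41% were lower in HDAC2, 6.06% in Mef2c, 7.95% in Mef2d and 2.32% in HDAC1 libraries. In Dyrk1 libraries 6.19% were lower and 11.1% higher. H2afz, the H2A.Z gene, was at 387 ± 25.6 FPKM in HDAC2 libraries, against 553 ± 70.7 in wild type (SD, n = 3 each, log2 -0.51, limma adjusted p = 0.0052). H2afx, whose protein marks DNA breaks, was lower in HDAC2 libraries (log2 -0.71, adjusted p = 0.00405) and higher in Dyrk1 libraries (0.53, adjusted p = 0.0199). H1f0, a linker histone of resting cells, was higher in Dyrk1 libraries (0.61, adjusted p = 0.00772) and lower in Mef2c and Mef2d libraries (-0.40 and -0.43, adjusted p = 0.0452 and 0.0325).

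Of 20 genes for histone mRNA transcription and processing, 18 were tested. Slbp was at 31.2 ± 1.24 FPKM in HDAC2 and 34.9 ± 1.80 in Mef2d libraries, against 43.7 ± 6.41 in wild type (SD, n = 3 each, log2 -0.46 and -0.31, limma adjusted p = 0.00631 and 0.0449). Npat, the coactivator of histone genes at the start of S phase, was higher in Dyrk1 and Mef2d libraries (0.32 and 0.26, adjusted p = 0.0196 and 0.0415), and Hinfp, an activator of H4 genes, in Dyrk1, HDAC1 and HDAC2 libraries (0.36, 0.43 and 0.35). Casp8ap2, which takes part in histone gene expression in S phase, was higher in Dyrk1, HDAC1 and HDAC2 libraries (0.46, 0.29 and 0.20, adjusted p = 0.00115, 0.0175 and 0.0473). In all, 0 were lower and 4 higher in Dyrk1, 0 and 2 in HDAC1, 2 and 2 in HDAC2, 0 and 0 in Mef2c and 1 and 1 in Mef2d libraries. Over all tested genes, 6.19% were lower and 11.1% higher in Dyrk1, 2.32% and 10.2% in HDAC1 and 9.41% and 16.1% in HDAC2 libraries. The shares were 6.06% and 12.9% in Mef2c and 7.95% and 13.9% in Mef2d libraries. Outside the Dyrk1 group the counts of these processing genes are near or under those shares. Of 18 histone chaperones and carriers 11 were lower in HDAC2, 6 in Mef2c and 5 in Mef2d libraries, with 1 higher in each, Atrx. The S phase chaperone gene Asf1b was at 10.4 ± 1.55 FPKM in HDAC2 libraries, against 21.5 ± 5.31 in wild type (log2 -0.96, limma adjusted p = 0.00323), and it was higher in Dyrk1 libraries (0.55, adjusted p = 0.0495).

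Genes of DNA replication mark cells in S phase. Of 24 tested genes of the S phase list, 24 were lower in HDAC2, 9 in Mef2c and 14 in Mef2d libraries and 0 in HDAC1 libraries, and 7 were higher in Dyrk1 libraries. Mcm7, a subunit of the replicative helicase, had a log2 difference of -0.68 in HDAC2, -0.43 in Mef2c and -0.54 in Mef2d libraries (SE 0.11 each, limma adjusted p = 0.00238, 0.0157 and 0.00453). Of 18 genes of G2 and mitosis, 16 were lower in HDAC2, 9 in Mef2c and 11 in Mef2d libraries. In Dyrk1 libraries 6 were higher, among them Mki67 (log2 1.20, limma adjusted p = 0.00121). For both lists, the shares over all tested genes were 9.41%, 6.06% and 7.95% lower in HDAC2, Mef2c and Mef2d libraries. They were 2.32% lower in HDAC1 and 11.1% higher in Dyrk1 libraries. The S phase list summed to 61.0%, 72.9% and 70.1% of the wild-type mean in HDAC2, Mef2c and Mef2d libraries, against 42.5%, 40.4% and 43.3% for the histone genes. The G2 and mitosis list summed to 45.4%, 58.6% and 59.9% in the same order, near the histone share in HDAC2 libraries. In Dyrk1 libraries the S phase list summed to 123%, the G2 and mitosis list to 146% and the histone genes to 99.1%.

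Expressed per 100 FPKM of the S phase list, histone RNA was at 12.6, 12.2 and 13.7 FPKM in HDAC2, 11.7, 9.52 and 9.47 in Mef2c and 10.3, 13.4 and 10.5 in Mef2d libraries, against 17.8, 17.4 and 19.5 FPKM in wild type. Dyrk1 libraries held 14.6, 15.1 and 14.8 and HDAC1 libraries 13.7, 17.8 and 15.4. Hist1h2al is counted in the Mef2d and Dyrk1 values. On this scale the 3 wild-type libraries lay close together, and all HDAC2, Mef2c, Mef2d and Dyrk1 libraries were below them. The wild-type libraries kept their order in both lists, with replicate 3 highest (978 FPKM of the S phase list) and replicate 2 lowest (629 FPKM). The histone level was not set against the G2 and mitosis list in this way. The part of the S phase and mitosis genes in the histone result was not tested.

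**Figure D5:**
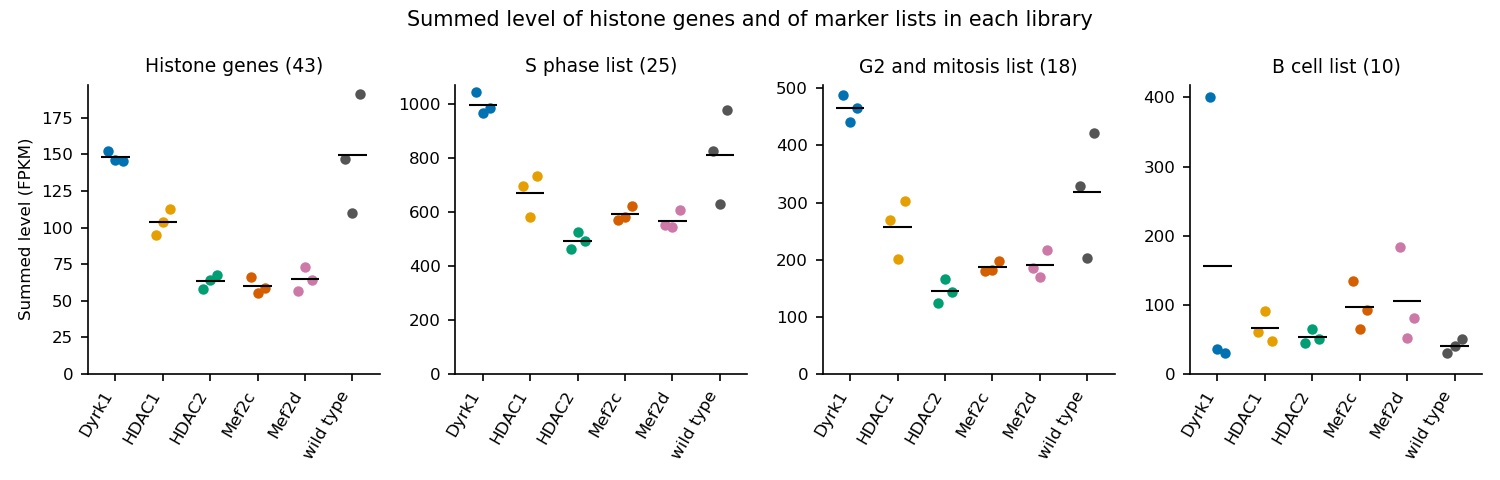
Summed level in FPKM (vertical axes, from 0) of the 43 histone genes, the S phase list, the G2 and mitosis list and the B cell list, with a point per library and a line at each group mean (n = 3). Wild-type replicates 3 and 2 are the highest and lowest of wild type in the histone, S phase and G2 and mitosis panels, and Dyrk1 replicate 1 stands out in the B cell panel at 400.1 FPKM.

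Markers of other cells were set beside these results. The B cell list had 0 of 10 genes called in any comparison with wild type. The plasma cell list had 6 of 7 genes higher in HDAC2 libraries, with sums of 674 to 2116 FPKM in HDAC2 and 201 to 504 FPKM in wild-type libraries, and 1 gene higher in each of HDAC1 and Dyrk1 libraries. Plasma cell sums were 529.6 to 1405 FPKM in HDAC1, 170 to 220 FPKM in Mef2c and 116 to 299 FPKM in Mef2d libraries. The CD8 T and NK cell list, with 8 genes tested, had 2 higher in HDAC2, 1 lower in Mef2c and 1 lower in Mef2d libraries. Of 6 erythroid genes tested, 1 was lower in each of the Dyrk1, Mef2c and Mef2d groups. Over all tested genes 16.1% were higher in HDAC2, 10.2% in HDAC1 and 11.1% in Dyrk1 libraries. The shares lower were 6.06% in Mef2c, 7.95% in Mef2d and 6.19% in Dyrk1 libraries. The erythroid sums spread widely, from 13.3 to 55.8 FPKM in Mef2d and 25.9 to 390.1 FPKM in wild-type libraries, and those of the myeloid list, with 0 of 7 called, from 14.6 to 321 and 16.1 to 201 FPKM. Myeloid sums reached 499 FPKM in Dyrk1 replicate 1 and 333 FPKM in HDAC1 replicate 2. The part of these other cells in the histone results was not tested, and the counts without the 3 libraries with the most B cell RNA are given above. None of the 20 listed RNAs known to lack a poly(A) tail is in the table used here, so the capture of such RNA could not be read.

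Members differed in how far their transcript is annotated past the stem-loop. The 14 members with 100 or more annotated bases after it had a median mean level of 2.81 FPKM (range 0.801 to 8.18), and 7 of the 12 most abundant members were among them. The 13 members with fewer bases had a median of 1.65 FPKM (0.533 to 4.27), and 1 of them was among the 12. The other 16 members, with no stem-loop in the annotated transcript, had a median of 1.53 FPKM (0.669 to 3.25) and held 4 of the 12. Hist1h1c, Hist1h4d and Hist1h4c have 840, 770 and 454 annotated bases after the stem-loop. FPKM divides by the authors' gene length, so this comparison is a description of the values as deposited.

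The minimum level left a thin margin for some genes. Hist1h2ad was just inside, with exactly 3 libraries at 1 or more and a highest value of 1.19 FPKM. Hist1h4j and Hist1h3d were just outside, with 2 libraries each and highest values of 1.53 and 1.83 FPKM. Of the 43 members, 7 were at 1 or more in all 18 libraries. Of the 24 identifiers outside the rule, 7 were at 0 in every library and 6 reached 1 in a library. Among those at 0 were Hist2h2aa2 and Hist2h3c1, none of whose 50-base words is unique to them. For the members the share of 50-base words found in no other GENCODE gene ran from 6.08% to 100%, with a median of 50.7%, and 8 were under 20%. How reads that match several genes were counted is not given in the sources used here, so the levels of near-identical copies, such as Hist1h3h and Hist1h3i, are uncertain, while Hist1h4c (80.4%) and Hist1h1c (91.5%) hold mostly unique words.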

How the data were processed

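RNA from 18 sorted Treg samples was sequenced as paired reads. Per the submitters' processing notes, STAR, HTSeq and the mm10 build were used, with no versions. The authors deposited a table of normalised values, which were taken as FPKM from the values themselves, since neither the labels nor the table names a unit. FPKM totals were 430017 to 493453 per library. The depth of 15.9 to 24.1 M reads was recovered from genes whose exon union gave whole reads within 0.03. Ensembl identifiers were given GENCODE M21 symbols (34490 of 35275 matched, 785 did not), and 3 histone symbols of that release were not analysed here.

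The scale of all tests was log2(FPKM + 1). limma 3.58.1 (R 4.3.3) fitted the 6 group means at once, with a trend of variance on level and 12 residual degrees of freedom. Genes with 1 FPKM or more in 3 or more libraries were tested (12223), with Benjamini-Hochberg adjustment over all of them and a threshold of 0.05. The fit was tested on simulated data. Each log2 difference is given with its standard error (SE), and changes of low genes are understated on this scale. SE and p-values rest on the spread among the 3 samples of a group, pooled over all 6 groups. They do not measure the spread of the compared groups alone. The summed histone level had an SD of 40.6 FPKM in wild type and 3.68 to 8.81 FPKM in the floxed groups. A pooled SE may therefore understate the wild-type spread in comparisons with wild type.

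The members and gene lists were chosen with earlier results of these data known. Members named are the 12 with the highest mean, the 20 with the smallest F-test p among those called against wild type, every member outside Hist1 and those nearest the minimum. Others named, among them genes of the other lists, were chosen after their values were seen. Alternatives were a pseudocount of 0.1, no filter, median-of-ratios (RLE) scaling, removal of length and GC trends, the replicate number as a block, a fit of the 2 groups alone, each library left out, and the 3 libraries with the most B cell RNA left out. The comparisons of Mef2c and Mef2d with HDAC2 were added after values were seen.

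The labels number the replicates alike in each group. Samples of the same number deviated together, with every correlation over 0.1, in HDAC2 and wild type (0.33, 0.24 and 0.16), HDAC1 and HDAC2 (0.21, 0.43 and 0.13) and Mef2c and Mef2d (0.31, 0.40 and 0.31). HDAC1 and wild type had correlations of 0.30, 0.46 and 0.067, of which only the last was under that limit. The main fit, which gave the calls, SE and p-values, has no term for the replicate number and so ignores this pairing. The number entered only in the replicate block, fitted over all 6 groups at once. With that block 27 members were called in HDAC2 against wild type, and 29 in the main fit.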

Additional observations from a re-analysis of the deposited data

How the results depend on the processing

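Counts of called members that moved by more than 1.5 times are given here. For HDAC1 against wild type (3 calls), the count was 1 with a pseudocount of 0.1, 1 with no filter, 6 with RLE scaling and 1 without the 3 libraries with the most B cell RNA. For Mef2d against wild type (28 calls, 27 of them lower), it was 18 without those libraries. For Mef2c against HDAC2 (5 calls), it was 10 with a pseudocount of 0.1, 8 with length and GC trends removed and 8 in a fit of the 2 groups alone. For Mef2d against HDAC2 (5 calls), it was 11 with a pseudocount of 0.1. The cause was not tested.

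Leaving out a library in turn gave 1 to 3 calls for Dyrk1, 1 to 9 for HDAC1, 18 to 31 for HDAC2, 15 to 27 for Mef2c and 17 to 30 for Mef2d against wild type. It gave 20 to 26 for Dyrk1 against HDAC2, 1 to 5 for HDAC1 against HDAC2, 1 to 2 for Mef2c against Mef2d, 3 to 5 for each Mef2 group against HDAC2 and 29 to 37 for the F test. Of 96 log2 differences of named members that passed, 70 stayed past the threshold under every alternative run and 0 changed sign.

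With the replicate block, 1, 2, 27, 22 and 26 members were called in Dyrk1, HDAC1, HDAC2, Mef2c and Mef2d against wild type, 27 in Dyrk1 against HDAC2, 3 in HDAC1 against HDAC2, 1 in Mef2c against Mef2d, 5 in each Mef2 group against HDAC2 and 33 in the F test. Among named members the block ended the calls of Hist1h2bn in HDAC1, of Hist1h4d in HDAC2 and of Hist1h2ae and Hist2h2be in Mef2d libraries. In HDAC1 and wild type, with correlations of 0.30, 0.46 and 0.067, samples of the same number may also be paired. The remaining comparisons each had a correlation below 0, and their samples were taken to share only a number.

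Low read numbers limit single members, and 3 libraries per group limit small differences.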
